A study of Mus musculus with 22 samples.

Results

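The SRSF and hnRNP genes encode RNA-binding proteins that steer pre-mRNA splicing, and their transcripts were measured in sorted bone marrow B cell precursors with and without ectopic LIN28B. Members were all rows of the 3 deposited stage tables whose symbol is Srsf followed by a number or begins with Hnrnp. This rule gave 31 genes, 11 SRSF and 20 hnRNP, of the 41814 genes listed in any of the tables, and 2 hnRNP pseudogene rows were left out. The rule used symbols alone and no measured value, although it was chosen with earlier results of these data known.

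The study compared tet-LIN28B mice with littermate controls in 3 sorted populations, the large Pro-B, the large Pre-B and the small Pre-B cells. tet-LIN28B mice carried 1 copy of Col1a tetO-LIN28B, a doxycycline-inducible Flag-tagged human Lin28b cDNA, together with the Rosa26 rtTA*m2 activator. Control mice were Rosa26 rtTA*m2 heterozygotes, so that the activator was shared by both groups, and adult mice of both genotypes received doxycycline chow at 200 mg/kg for 10 days. The activator is not restricted to B cells, so LIN28B was not confined to the sorted populations. Large Pro-B cells came from 4 control and 5 tet-LIN28B mice, large Pre-B cells from 3 and 4 of the same mice, and small Pre-B cells from 3 and 3 other mice. Each of the 22 RNA-seq libraries held the cells of 1 mouse, and small Pro-B cells had been kept out of the sorting gate.

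SR proteins carry RNA recognition motifs and an arginine- and serine-rich tail. They typically bind exonic enhancers and help recruit the spliceosome, whereas many hnRNP proteins bind silencers and keep splice sites out of use. Both families also act in mRNA export, stability and translation, and many members limit their own mRNA through exons that carry premature stop codons. In lymphocytes, the HNRNPLL protein is known for excluding variable exons of the CD45 transcript.

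LIN28B blocks maturation of the let-7 microRNAs, and the sequences of that route were therefore read for all members. The mature let-7a sequence from RefSeq (GRCm38, chr13:48538239-48538260, minus strand) is given with its seed, bases 2 to 8, in capitals, above the single match to that seed in the annotated 3′ UTRs of the members, with the match in capitals.
let-7a-5p: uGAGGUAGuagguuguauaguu
Hnrnpr 3′ UTR: tgactacagacCTACCTCtcatttcaacc
The match CTACCTC was searched on the transcript strand of the longest coding transcript of each gene in GENCODE vM21. It was present in 1 of 31 members, or 3.23%, and in 7.63% of the 21644 genes with an annotated 3′ UTR. Among such genes tested at a stage, the share was 9.15% to 9.59%. The printed Hnrnpr window, the match with 11 bases on either side, lies at chr4:136353037-136353065 on the plus strand, and the match begins at base 13020 of a 3′ UTR of 19419 bases.

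Hnrnpr encodes an hnRNP close to the mRNA-binding protein SYNCRIP. In small Pre-B cells its normalized counts were 5463, 4389 and 4692 in controls and 4352, 4377 and 4324 in tet-LIN28B mice. All 3 tet-LIN28B libraries were below every control library, with a log2 fold change of −0.15 ± 0.083 (SE) that did not pass the test (limma adjusted p = 0.267). At the 2 earlier stages the difference was 0.08 ± 0.23 and 0.23 ± 0.20 on the log2 scale.

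The second sequence read was the E-box CACGTG, the core site of MYC and its partner MAX, because Myc was measured in the same libraries. RefSeq promoter windows, from 250 bases before to 50 bases after a gene's start, were given for 29 of 31 members, and none was given for Hnrnpll and Hnrnpul2. The palindromic E-box was present in 5 of these 29 members, or 17.2%, and in 8.64% of the 20559 genes with a window. Among genes with a window that were tested at a stage, the share was 11.6% to 11.9%, beside 5 of 28 members. The matches, in capitals with 12 bases on either side, are shown 5′ to 3′ on the strand of the gene.
Hnrnpa3: cggatagcacatCACGTGgtgactggcccc
Hnrnpd: gcgctccggagcCACGTGaccgggacgcgc
Hnrnpf: cgagcgggcgctCACGTGgcccgaggcgcc
Hnrnph2: ccgagagttgctCACGTGaccgagatctca
Hnrnpm: gtcgttcggggtCACGTGagcgcgcaggcg
On GRCm38.p6 these windows are chr2:75659229-75659258 (plus), chr5:99978953-99978982 (minus), chr6:117907713-117907742 (plus), chrX:134601182-134601211 (plus) and chr17:33685428-33685457 (minus). The Hnrnpf match fell in 1 of several alternative starts.

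Myc was measured at 37.2, 76.8 and 39.5 normalized counts in small Pre-B controls and at 315, 441 and 469 in tet-LIN28B mice. The difference of 3.03 ± 0.29 on the log2 scale passed the test (limma adjusted p = 0.000231), and the groups did not overlap. The 5 members with an E-box had a median log2 fold change of 0.08 in those cells, and the members with a window but no E-box had 0.07. In large Pro-B and large Pre-B cells, where the Myc differences of −0.33 and 0.18 did not pass, the 5 members had medians of −0.03 and 0.05.

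The whole series was checked briefly before the members were compared. Recovered depth was 13899691 to 30437872 reads in the large-cell libraries and 32004733 to 50991949 in small Pre-B libraries. Lin28b was at 0 in all 3 small Pre-B controls and at 81.9 to 230.2 normalized counts in tet-LIN28B mice. It was at 4.63 to 10.2 against 57.0 to 232.1 in large Pro-B cells and at 9.92 to 28.8 against 41.9 to 175.3 in large Pre-B cells, so that every tet-LIN28B library was above every control of its stage. The difference passed the limma test in small Pre-B cells (adjusted p = 7.7e-05) and not in large Pro-B or large Pre-B cells (0.290 and 0.452), while DESeq2 on the recovered reads called it in large Pro-B cells (adjusted p = 2.2e-08). The row is that of the mouse gene and the transgene is human, so its level may be understated. The B cell markers Cd79a, Pax5 and Ebf1 were detected in all libraries. Kit was highest in large Pro-B cells, with control medians of 911, 35.7 and 50.8 normalized counts over the 3 stages, and Il2ra in small Pre-B cells, with 28.3, 323 and 10554. Both differed by genotype in small Pre-B cells. Il2ra was at 10210 to 10907 in controls and 4504 to 5252 in tet-LIN28B mice, and Kit at 42.8 to 56.4 and 2.72 to 33.8. In large Pre-B cells Il2ra was at 306 to 390 and 202 to 294.

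In control cells the most abundant members per length were the G-tract-binding Hnrnpf and the poly-C-binding Hnrnpk. Hnrnpf stood at 631 RPM (reads scaled to the total of the library) per kilobase of exon in large Pro-B cells, 659 in large Pre-B cells and 293 in small Pre-B cells, and Hnrnpk at 352, 375 and 292. Hnrnpa2b1, a broad exon repressor and mRNA transport factor, followed with 317, 361 and 191 on the same scale. These 3 genes were among the first 4 at every stage. At the low end, Srsf12 was at 0 to 5 normalized counts and was not tested at any stage.

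The members took 1.61% to 2.00% of all reads in large Pro-B and large Pre-B libraries and 1.23% to 1.31% in small Pre-B libraries. Within the small Pre-B libraries, controls were at 1.23%, 1.24% and 1.24%, and tet-LIN28B mice at 1.30%, 1.25% and 1.31%.

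**Figure D1:**
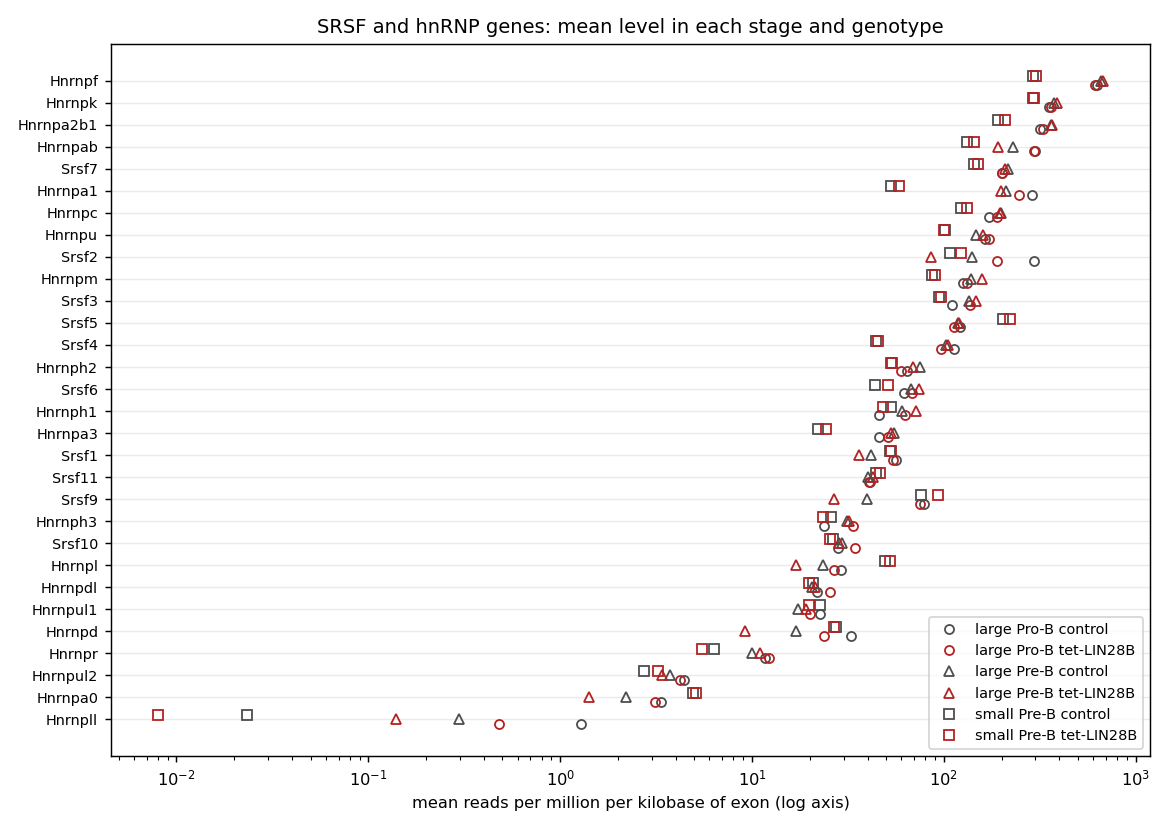
Mean level of each member, in RPM per kilobase of exon on a log axis, for controls (grey) and tet-LIN28B mice (red) in large Pro-B (circles), large Pre-B (triangles) and small Pre-B cells (squares). Hnrnpf and Hnrnpk lead at every stage, and Hnrnpll is the lowest and falls with the stage; Srsf12 is left out.

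From large to small Pre-B cells, members were more often lower than higher, as a description across separate mice and separately normalised tables. In controls, 17 of 30 members had every small Pre-B library below every large Pre-B library in RPM, beside 28.2% of all 15833 genes, and 3 had every library above, beside 42.6%. In tet-LIN28B mice the counts were 16 below, beside 24.3%, and 6 above, beside 40.9%. The median ratio of small to large Pre-B level was 0.719 over members and 1.21 over all genes in controls, and 0.734 and 1.23 in tet-LIN28B mice. Fewer cells of a type and less RNA per cell cannot be told apart in these bulk libraries.

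Hnrnpa1, the classical exon repressor, had a ratio of 0.253 in controls and 0.295 in tet-LIN28B mice. Srsf4, which encodes a long SR protein, had 0.429 and 0.431, and Hnrnpf had 0.445 and 0.447. Hnrnpa3 had 0.401 and 0.456, and Hnrnpll, which was below the filter in small Pre-B cells, had 0.078 and 0.057. The 3 members above in both genotypes were Hnrnpl, a binder of CA repeats, with 2.12 and 3.07, Srsf5 with 1.73 and 1.83, and the low-abundance Hnrnpa0 with 2.24 and 3.61. Srsf4, Hnrnpl and Hnrnpa0 were singled out after their values were seen. Reads of the Srsf4 row could include the antisense Gm12992, since 43.0% of its exon bases overlap that gene and the library kit does not mark strand. The same limit holds for Hnrnpab, Hnrnpf and Srsf2, where opposite-strand genes overlap 29.1%, at most 26.5% and at most 25.3% of exon bases.

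Hnrnpll stood lower at each later stage, as a description. Its normalized counts in large Pro-B cells were 64.4, 219, 283 and 509 in controls and 54.6, 142, 109, 37.5 and 148 in tet-LIN28B mice. In large Pre-B cells they were 18.4, 55.3 and 81.3 in controls and 7.11, 20.7, 61.3 and 21.3 in tet-LIN28B mice. The 2 genotypes overlapped at both stages, although the 3 highest large Pro-B values were controls.

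The Hnrnpll difference between genotypes was −1.29 ± 0.61 on the log2 scale in large Pro-B cells (limma adjusted p = 0.999) and −1.01 ± 0.70 in large Pre-B cells (limma adjusted p = 0.770). Its 95% intervals ran from −2.63 to 0.04 and from −2.52 to 0.50. In small Pre-B cells Hnrnpll was at 0 to 21.6 normalized counts and was below the filter.

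In large Pro-B cells, 0 of 30 members tested rose or fell in tet-LIN28B mice. The shares of all 13776 genes called higher and lower were 0% and 0%. A single member, Hnrnph3, had an unadjusted p under 0.05, and edgeR and DESeq2 on the recovered reads also called 0 members. The median log2 fold change was −0.01 over the members and 0.02 over all genes, and 14 members were above 0, beside 52.2% of all genes.

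Hnrnph3, a member of the G-run-binding F/H group, was at 1595, 1272, 1341 and 1155 normalized counts in controls and at 1759, 2162, 1609, 2297 and 1725 in tet-LIN28B mice. It was the only one of 30 members without overlap between genotypes in that direction, beside 0.697% of all genes, and 0 members were without overlap in the other, beside 0.602%. Its log2 fold change was 0.51 ± 0.20 and did not pass (limma adjusted p = 0.999).

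The paralog Hnrnph1 had 7256, 5238, 3978 and 2868 normalized counts in controls and 5861, 5817, 7755, 3931 and 9120 in tet-LIN28B mice, with overlap and a log2 fold change of 0.45 ± 0.30. Srsf3, the smallest SR protein and an mRNA export adapter, followed with 0.28 ± 0.20. At the other end stood Srsf2, an enhancer-binding SR protein of nuclear speckles, with −0.67 ± 0.50, and Hnrnpd, which binds AU-rich elements and promotes mRNA decay, with −0.33 ± 0.59. None of these 4 differences passed, with a limma adjusted p of 0.999 for each. Single libraries moved them: Srsf2 was −1.09 without control 1 and −0.36 without tet-LIN28B 3, Hnrnpd was −0.90 without control 1 and turned to 0.10 without control 4, and Hnrnph1 was 0.23 without control 4.

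The panel of well-described members lay near 0 in large Pro-B cells. The log2 fold changes were 0.04 for Srsf1, the founding SR protein, and −0.02 for the export adapter Srsf7. They were −0.23 for Hnrnpa1, 0.07 for Hnrnpa2b1, −0.03 for Hnrnpf, 0.04 for Hnrnpk and 0.04 for Hnrnpm, a binder of GU-rich introns. The 95% intervals of 24 of 30 members lay within a 2-fold change in either direction, and those of 10 lay within 1.5-fold.

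Libraries of 1 genotype differed among themselves in several members. Srsf2 was at 5865, 14734, 19315 and 23089 normalized counts in large Pro-B controls and at 8212, 13995, 3765, 20198 and 6071 in tet-LIN28B mice. Hnrnpd was at 1036, 2998, 5127 and 8285 and at 1854, 3288, 1483, 7617 and 2059. Srsf9 was at 757, 1771, 3035 and 3802 and at 1363, 2292, 872, 6179 and 1084.

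The same 3 libraries, controls 3 and 4 and tet-LIN28B 4, were the highest for Srsf2, Hnrnpd and Srsf9, while control 1 was the lowest or among the lowest. Hnrnpm moved the other way, with 24228, 17858, 17371 and 12530 in controls and 23654, 26012, 14911, 11592 and 17928 in tet-LIN28B mice, its lowest value being in tet-LIN28B 4. The within-genotype SD of log2 values ranged from 0.12 for Hnrnph2 to 1.10 for Hnrnpd, with a median of 0.41 over the members.

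The GC contrast of a library, the mean deviation of GC-rich minus GC-poor genes on the log2 scale, was 0.08, 0.35, 0.25 and 0.00 in controls 1 to 4. It was 0.29, 0.24, −0.70, −0.10 and −0.41 in tet-LIN28B 1 to 5. The 9 myeloid markers summed to 1285 to 4882 normalized counts in controls and 1210 to 1578 in tet-LIN28B mice, and the 15 B lineage markers to 105714 to 160395 and 112161 to 148218. With GC content corrected, 0 of 30 members passed. The part of marker RNA in the spread was not tested.

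**Figure D2:**
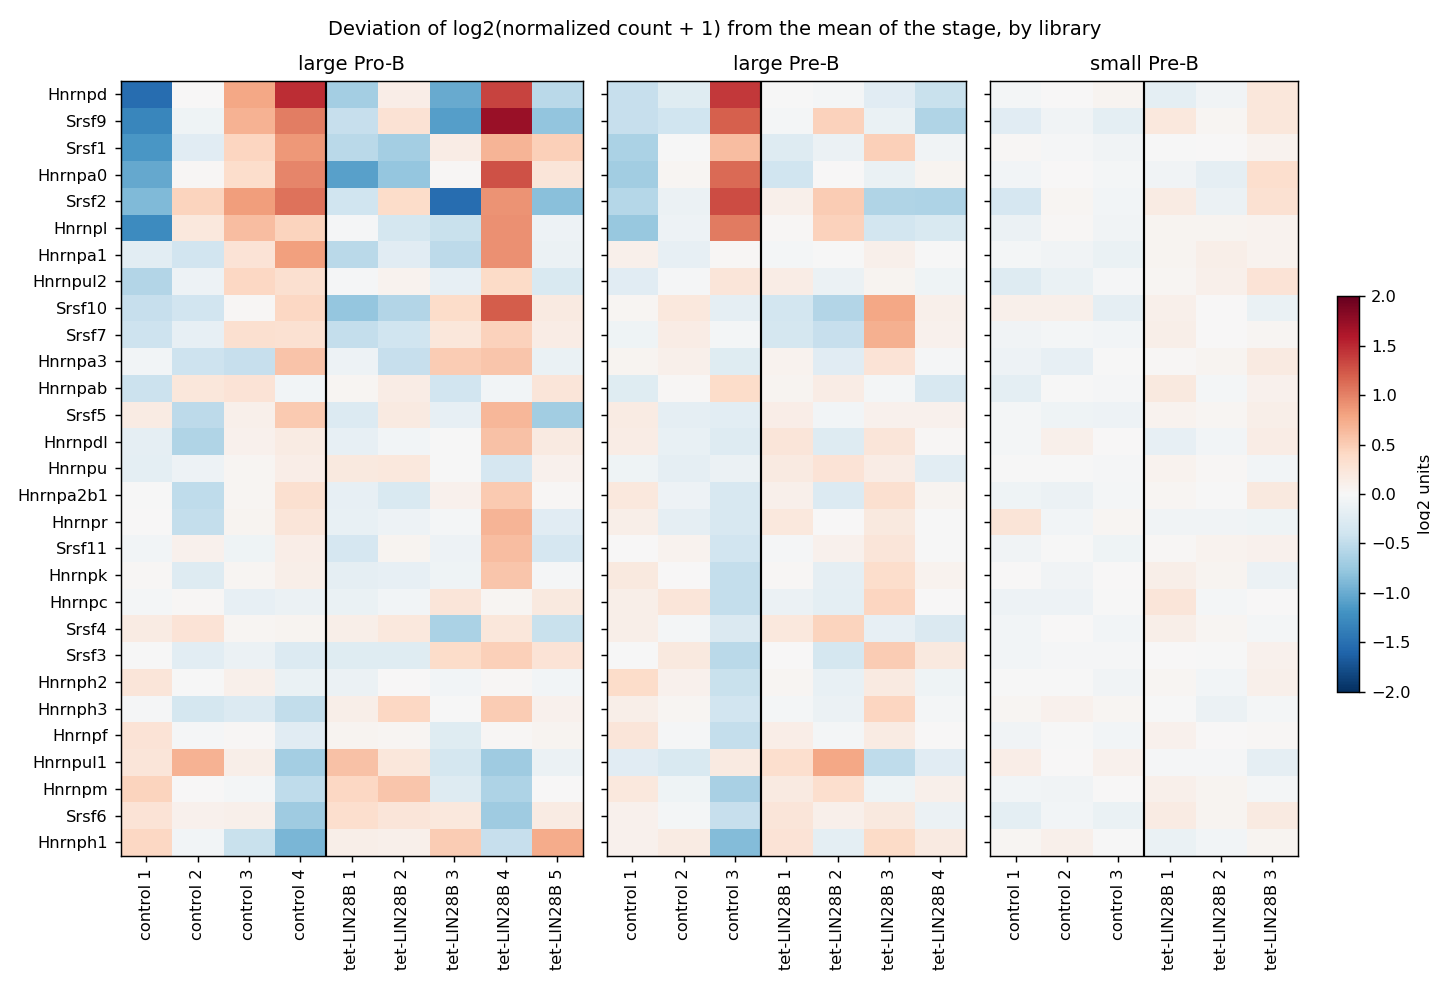
Deviation of each member's log2(normalized count + 1) from its mean over the libraries of a stage, by library, with controls left and tet-LIN28B right of the black line in each panel; red is above and blue below the stage mean. In large Pro-B cells, controls 3 and 4 and tet-LIN28B 4 are high in Hnrnpd, Srsf9 and Srsf2, in large Pre-B cells control 3 is, and small Pre-B libraries are pale throughout; Srsf12 and Hnrnpll are left out.

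In large Pre-B cells, again 0 of 30 members tested rose or fell. Of all 14155 genes, 0.0424% were called higher and 0.0141% lower. No member had an unadjusted p under 0.05 with limma, and edgeR and DESeq2 on the recovered reads called 0 members. No member was without overlap between genotypes, beside 3.59% of all genes above and 2.87% below. The median log2 fold change of the members was 0.09 with 20 of 30 above 0, beside 48.2% of all genes. It was −0.01 with 15 of 30 above 0 when libraries were rescaled to the same total, a change that moved the median of all genes from −0.02 to −0.12.

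Hnrnph1 had the highest log2 fold change of the members, with 6571, 6937 and 3420 normalized counts in controls and 7487, 5425, 8101 and 7040 in tet-LIN28B mice. The log2 fold change was 0.37 ± 0.26 and did not pass (limma adjusted p = 0.770), and it was 0.04 without control 3, the lowest library. Hnrnpm followed with 0.30 ± 0.24 and Srsf6 with 0.24 ± 0.21, or 0.06 and 0.08 without control 3, while Hnrnpd and Srsf2 were lowest after Hnrnpll, with −0.42 ± 0.36 and −0.36 ± 0.39. Both of these turned positive without control 3, to 0.16 and 0.19. The panel genes Srsf1, Srsf3 and Srsf7 had 0.01, 0.21 and −0.01 on the log2 scale, and Hnrnpa1, Hnrnpa2b1, Hnrnpf and Hnrnpk had 0.02, 0.12, 0.15 and 0.15.

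Control 3 stood apart in several members. It had 11096 normalized counts of Srsf2 beside 3034 and 4172 in the other controls and 2958 to 6392 in tet-LIN28B mice. It also had 3441 of Hnrnpd beside 942 to 1280 in the 4 tet-LIN28B libraries, and 1761 of Srsf9 beside 505 to 1062. Control 3 came from the mouse that gave control 3 of the large Pro-B cells, and its GC contrast was 0.34 beside −0.19 and −0.06 in the other controls and −0.63 to 0.64 in tet-LIN28B mice. The B lineage markers summed to 55707 in control 3 and to at least 73400 in every other large Pre-B library, and the part of this in the member values was not tested. Without control 3, 0 of 30 members passed and the median log2 fold change was 0.06.

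In small Pre-B cells, 2 of 29 members tested rose in tet-LIN28B mice and 0 fell. The shares of all 14664 genes called there were 7.34% higher and 7.03% lower, so that the 2 members were a share near the background. With libraries rescaled to the same total the genome-wide split of 1076 higher and 1031 lower became 829 and 1227, and both members still passed, with a limma adjusted p of 0.0364 for Srsf9 and 0.0488 for Srsf6. Both were SR protein genes, Srsf9 (chr5:115327177-115333080, plus strand, mm10) and Srsf6 (chr2:162931528-162937121, plus strand).

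Srsf9, which encodes a short SR protein known as SRp30c, was at 4150, 4661 and 4263 normalized counts in controls and 5647, 5000 and 5717 in tet-LIN28B mice. The lowest tet-LIN28B library was above the highest control. The means were 4358 ± 269 and 5455 ± 396 (SD, n = 3 each), and the log2 fold change was 0.32 ± 0.077 (SE, limma adjusted p = 0.0205). Its 95% interval was a fold of 1.11 to 1.41.

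Srsf6, which encodes the enhancer-binding SRp55, was at 6970, 7685 and 7303 normalized counts in controls and 8963, 8301 and 9036 in tet-LIN28B mice, again without overlap. The log2 fold change was 0.26 ± 0.065 (limma adjusted p = 0.0256), with a fold of 1.08 to 1.32. Neither gene shares exon bases with another annotated gene. Both calls were lost without tet-LIN28B 1, without control 1 or without control 3, where the adjusted p of Srsf9 was 0.0735, 0.0852 and 0.0798 and that of Srsf6 was 0.0819, 0.103 and 0.0862 with limma. The Srsf6 call was also lost without tet-LIN28B 3 (limma adjusted p = 0.0518) and with quantile normalization (0.0643), where Srsf9 kept its call.

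Other members moved by less. Unadjusted p was under 0.05 for 7 of 29 members, beside 29.0% of all genes. Besides Srsf9 and Srsf6 these were Hnrnpul2, Hnrnpa1, Srsf5, Hnrnpa2b1 and Hnrnpa3. Srsf5 and Hnrnpa3 were singled out after their values were seen.

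Hnrnpul2, a nuclear RNA-binding protein of the U group, was at 618, 670 and 729 normalized counts in controls and 759, 794 and 892 in tet-LIN28B mice, with 0.28 ± 0.11 on the log2 scale (limma adjusted p = 0.128). Hnrnpa1 was at 6011, 5856 and 5609 in controls and 6420, 6680 and 6478 in tet-LIN28B mice, with 0.16 ± 0.060 (limma adjusted p = 0.10). Neither overlapped between genotypes, and neither passed.

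Srsf5, an SR protein gene whose own transcript was the third most abundant member per length at this stage, was at 28871, 27971 and 27603 in controls and 31172, 30437 and 32027 in tet-LIN28B mice. Hnrnpa2b1 was at 43219, 42303 and 44945 and at 47511, 45939 and 52784. Hnrnpa3 was at 4093, 3914 and 4369 and at 4450, 4545 and 4976. In normalized counts these 3 genes were each above control in every tet-LIN28B library, with log2 fold changes of 0.15, 0.16 and 0.17 that did not pass. In RPM, Srsf5 stayed above, and the genotypes overlapped for Hnrnpa2b1 and Hnrnpa3.

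**Figure D3:**
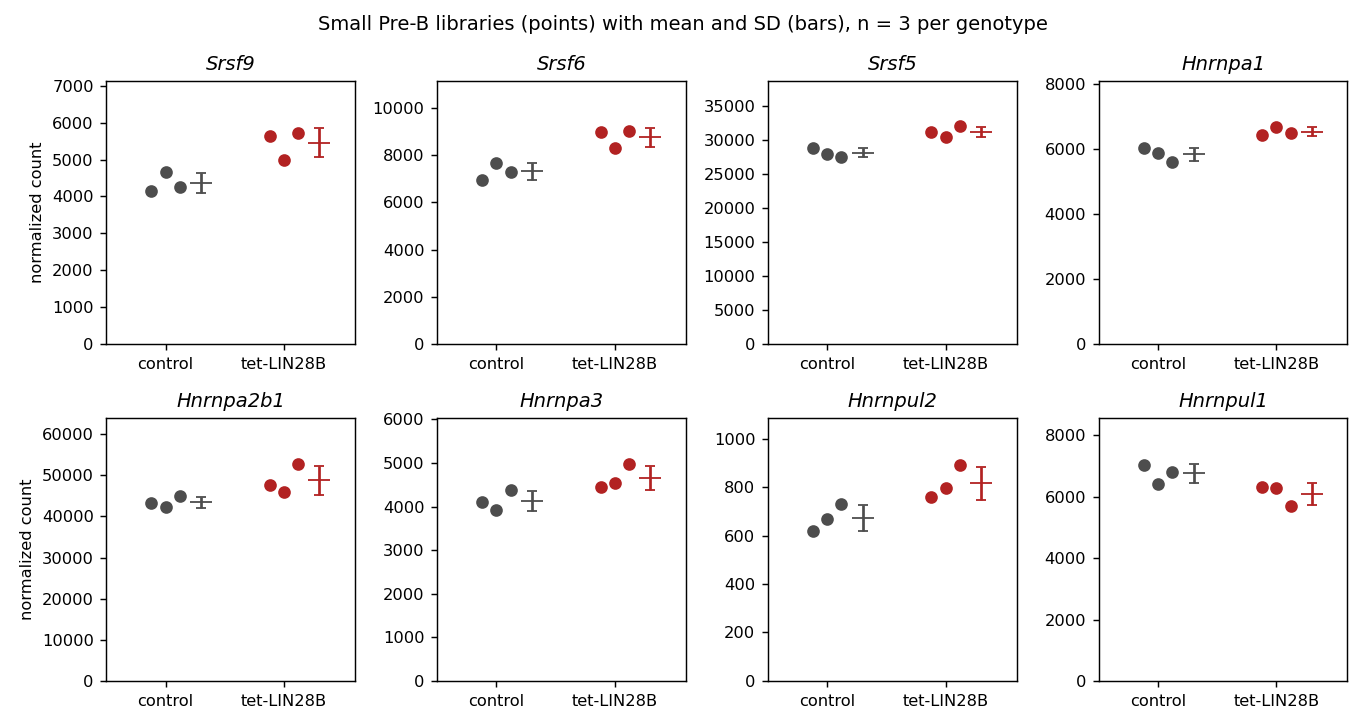
Normalized counts of 8 members in the small Pre-B libraries (points) with the mean and SD of 3 libraries per genotype (bars), controls grey and tet-LIN28B red, all axes from 0. Srsf9 and Srsf6 passed the test; the other 6 did not, and the genotypes do not overlap in any of the 8 panels.

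In normalized counts, 12 of 29 members had every tet-LIN28B library above every control, beside 17.7% of all genes, and 3 had every library below, beside 16.2%. The 12 were Srsf3, Srsf5, Srsf6, Srsf7, Srsf9 and Srsf11, and Hnrnpa1, Hnrnpa2b1, Hnrnpa3, Hnrnpf, Hnrnpl and Hnrnpul2. The 3 below were Hnrnpr, Hnrnpul1 and Hnrnph3, which also had the lowest log2 fold changes, −0.15, −0.15 and −0.11. In RPM, Srsf3, Srsf7, Srsf11, Hnrnpa2b1, Hnrnpa3, Hnrnpf and Hnrnpl overlapped between genotypes. Srsf5, Srsf6, Srsf9, Hnrnpa1 and Hnrnpul2 stayed above, and the 3 below stayed below. The count above thus depended on the scaling, and no share of all genes in RPM is set beside it. The median log2 fold change was 0.08 over the members and −0.00 among all genes tested, with 22 of 29 members above 0, beside 49.7% of all genes. With libraries rescaled to the same total the medians were 0.04 over the members and −0.04 among all genes, with 21 of 29 members above 0. With quantile normalization they were 0.05 and 0.01, with 20 of 29 members above 0.

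By group, 9 of 10 tested SR protein genes were above 0, with a median log2 fold change of 0.11, and 5 of 7 hnRNP A/B and D genes, with 0.16. Of all genes tested 49.7% were above 0, and the group values are on the scale of the normalized counts alone. The F/H genes were split 2 and 2 around a median of −0.02. Of the C, K, M and R genes 3 of 4 were above 0, and of the U genes 2 of 3.

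The remaining panel genes in small Pre-B cells differed by little and with narrow intervals. Srsf1 had 0.05 ± 0.058, Srsf3 0.07 ± 0.055 and Srsf7 0.11 ± 0.056 on the log2 scale, and Srsf2 had 0.23 ± 0.12. Hnrnpf had 0.08 ± 0.055, Hnrnpk 0.04 ± 0.070 and Hnrnpm 0.08 ± 0.060. None passed, and the 95% intervals of 29 of 29 members lay within 1.5-fold. The within-genotype SD had a median of 0.08, beside 0.41 and 0.29 at the first and the second stage.

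Markers of other cell types and of the cell cycle were summed in the same small Pre-B libraries. The 9 myeloid markers summed to 1628 to 3150 normalized counts in controls and 1424 to 1491 in tet-LIN28B mice. The 7 erythroid markers summed to 47.9 to 97.7 and 146 to 172, with Car1 at 0 in controls, and the 8 T and NK markers to 14.1 to 29.8 and 10.4 to 14.5, with Cd3e at 0 in both genotypes. The 18 cell cycle markers summed to 26793 to 32271 and 28677 to 35584, with 4 of 18 higher, and of 15 B lineage markers 1 was higher and 4 lower (limma). Their part in the member differences was not tested.

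**Figure D4:**
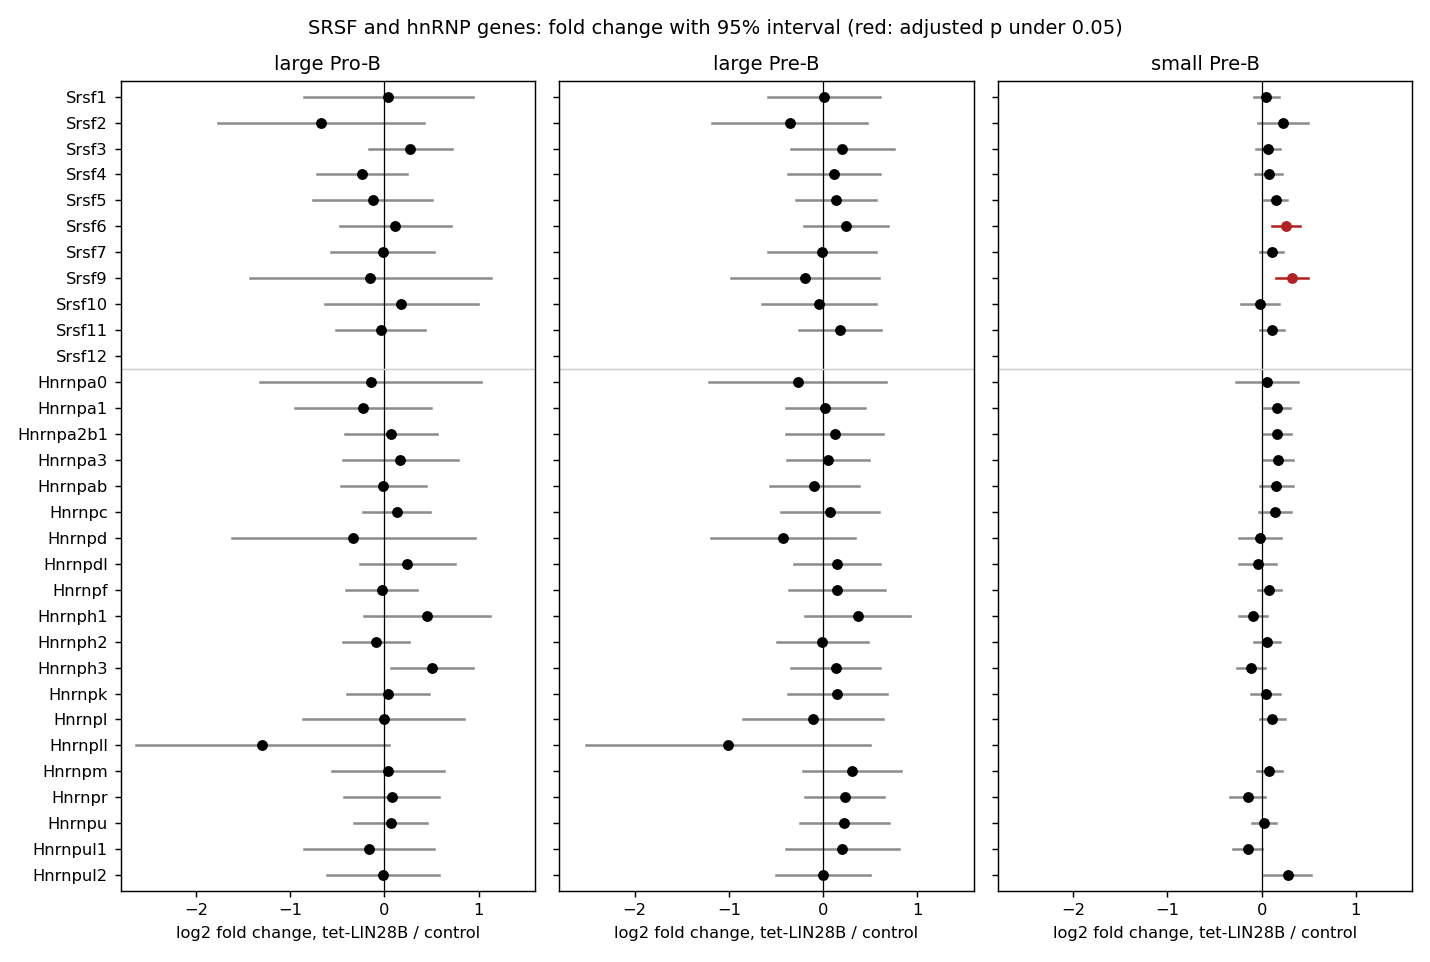
Log2 fold change of tet-LIN28B over control for each member (points) with its 95% interval (lines) at the 3 stages, SRSF genes above and hnRNP genes below the grey line; red marks an adjusted p under 0.05. Only Srsf6 and Srsf9 in small Pre-B cells are red, and the intervals there are the narrowest.

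The differences between the stages in the genotype effect were tested directly, in 1 model with the mouse as a block. None of 29 members passed in any comparison of 2 stages with limma. The share of all 11830 genes passing was 0.0169% for small Pre-B minus large Pre-B, 0.0338% for small Pre-B minus large Pro-B and 0% for large Pre-B minus large Pro-B. The unadjusted p was under 0.05 for 0, 1 and 0 members, and the 1 was Hnrnph3, with a difference of −0.62 ± 0.26 between small Pre-B and large Pro-B cells (limma adjusted p = 0.918). The effect on Srsf9 and Srsf6 in small Pre-B cells was therefore not shown to differ from that at the earlier stages, where the intervals of Srsf9 ran from −1.43 to 1.13 and from −0.98 to 0.59.

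The list of transcripts that the study recovered with LIN28B by RNA immunoprecipitation from cultured precursors, a separate experiment, held 6 members, Srsf1, Srsf3, Hnrnpa2b1, Hnrnpa3, Hnrnph3 and Hnrnpm. The study took that list by enrichment over input among genes above an expression floor, and its control sample was not used for it. RNA splicing was among the gene ontology terms that the study identified in that list. No share of all genes is set beside the 6 here, so no excess of members is claimed. With limma 0 of the 6 passed at any stage, and 1, 0 and 2 had an unadjusted p under 0.05 in the order of the stages, beside 2.86%, 6.57% and 29.0% of all genes. Their median log2 fold change was 0.12, 0.13 and 0.07 from the first stage to the last, beside 0.02, −0.02 and −0.00 among all genes tested. In small Pre-B cells 3 of the 6 had every tet-LIN28B library above every control, beside 17.7% of all genes, and 1, beside 16.2%, had every one below. That 1 was Hnrnph3, at 2791, 2887 and 2806 in controls and 2693, 2514 and 2644 in tet-LIN28B mice. In RPM, Hnrnph3 stayed below, but the 3 above, Srsf3, Hnrnpa2b1 and Hnrnpa3, overlapped between genotypes.

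The rest of the splicing machinery was described from lists of SR protein kinases and import factors, other splicing regulators, core snRNP proteins, and exon junction and nonsense-mediated decay factors. With limma, 0 of their genes passed at the 2 earlier stages, where 0 and 4 had an unadjusted p under 0.05, and edgeR and DESeq2 also called 0. Among small Pre-B libraries 9 passed as higher and 2 as lower, where 7.34% and 7.03% of all genes did. Of 47 core snRNP genes, 6 rose and 1 fell, and the median log2 fold change was 0.12 with 37 above 0.

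Snrpf, which encodes the Sm F protein of the snRNP ring, fell from 1934 ± 106 to 1130 ± 95.7 normalized counts (SD, n = 3 each), a log2 fold change of −0.78 ± 0.092 (limma adjusted p = 0.000696). Lsm4, of the related Lsm ring, rose by 0.41 ± 0.068, and Sf3a3, a U2 snRNP subunit, by 0.34 ± 0.061. Among other regulators 2 of 43 rose, the poly-C-binding Pcbp2 by 0.50 ± 0.11 and Rbm17 by 0.25 ± 0.068. Magoh, of the exon junction core, rose by 0.33 ± 0.090, and Smg6, a decay endonuclease, fell by 0.29 on the log2 scale. The 11 calls became 4 without tet-LIN28B 1, 4 without control 1, 5 without control 3, 6 without control 2 and 7 without tet-LIN28B 3. Rbm17, Magoh and Smg6 each lost the call without tet-LIN28B 1, 2 or 3, control 1 or control 3, Magoh also without control 2, and Pcbp2 without control 1 or control 3. With libraries rescaled to the same total, Rbm17 and Magoh had a limma adjusted p of 0.0710 and 0.0538. Rbm17 was at 0.107 with quantile normalization, and Rbm17 and Smg6 were at 0.0566 and 0.0634 with no filter on low values. None of the 11 SR protein kinase and import genes passed in small Pre-B cells, where 1 had an unadjusted p under 0.05.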

How the data were processed

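RNA of sorted cells was made into SMART-Seq v4 and Nextera XT libraries, which do not mark strand. Per the labels, the authors aligned reads to mm10 with STAR 2.7.1, counted them with RSEM 1.28 and deposited 1 table of normalized counts (a signal scaled by DESeq2 size factors) for each stage. The sources used here do not name the annotation. Tables of the authors' own fold changes and p-values were not used.

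Values were whole multiples of 1 read in 100% of cases within 0.1, so that reads were recovered. The main test was limma 3.58.1 (R 4.3.3, trend) on log2(normalized count + 1), within each stage, with Benjamini-Hochberg adjustment over all genes at or above 10 in as many libraries as the smaller genotype group, and a threshold of 0.05. Fold changes are on that scale and are understated for low genes. Differences between stages were fitted over all 22 libraries with mouse as a random block (correlation 0.278, 15 mice, 7 of them giving 2 stages). edgeR 4.0.16 and DESeq2 1.42.0 on recovered reads, other pseudocounts, filters and scalings, a replicate block, a GC correction chosen after seeing the data, and leaving out each library were alternatives. Depth was 13899691 to 50991949 reads. Scripts were tested on simulated data.

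Members and gene lists were chosen with earlier results of these data known. Named were members that passed, the 3 highest and 3 lowest fold changes per stage, a fixed panel, and up to 3 genes that passed per other list. P-values measure the spread between mice. Levels per length used the exon union of GENCODE vM21, and several hnRNP genes have processed pseudogenes whose reads may be split.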

Additional observations from a re-analysis of the deposited data

Results flagged for a closer look

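Of 93 groups of 4 or 5 libraries in which a member was examined, 5 had 1 library far from the others. Its gap to the nearest library took most of the group's range, both taken on the log2 scale. Chance flags about 1 in 20 groups, or 4.65 of these. In large Pro-B cells of tet-LIN28B mice, replicate 3 was lowest for Hnrnpf, at 28647 normalized counts beside 34478 to 35321 (gap over range 0.885). Replicate 4 was highest for Hnrnpk, at 60501 beside 36667 to 40515 (0.801), and for Hnrnpr, at 7521 beside 4031 to 4582 (0.795), and lowest for Srsf6, at 3318 beside 6094 to 6904 (0.830). In large Pre-B cells of tet-LIN28B mice, replicate 3 was highest for Hnrnph3, at 2168 beside 1493 to 1577 (0.854). None of these members passed the test at that stage, with or without the library.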

How the results depend on the processing

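In small Pre-B cells the members called fell from 2 to 1 with quantile normalization and to 1 with the replicate number as a block (replicate block), Srsf9 remaining in each and Srsf6 at a limma adjusted p of 0.0643 and 0.0566, and ranged from 0 to 2 when 1 library was left out. Genes called in the other splicing lists fell from 11 to 7 with the replicate block and ranged from 4 to 10 with 1 library left out. Whether replicate numbers pair the libraries could not be told. Correlations of same-numbered deviations were −0.19 to 0.43, −0.06 to 0.16 and −0.11 to 0.02 in the 3 stages. Libraries known to share a mouse had −0.16 to 0.52, so low values do not show a lack of pairing. Counts of members in large Pro-B and large Pre-B cells stayed at 0 under every alternative run. Over all genes, large Pro-B calls were 0 with limma and edgeR and 3 higher and 1 lower with DESeq2. Large Pre-B calls were 6 higher and 2 lower with limma, 61 and 15 with DESeq2, 0 with edgeR, and 0 to 18 higher with 1 library left out. Small Pre-B calls were 1076 higher and 1031 lower, 829 and 1227 with libraries rescaled to the same total, and as few as 497 and 519 without control 1. The GC correction is void in small Pre-B cells, where 77.1% of genes had a GC value. In large cells, 95% intervals within 1.5-fold were reached for 10 and 6 of 30 members, which limits what could be seen there. The sequencer of each library is not known here.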
